A study of Danio rerio with 18 samples.

Results

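The genes described here encode proteins of the spliceosome, factors that guide it to its splice sites, and some LSM relatives that work elsewhere. They were taken from the array's probe annotation by symbol: every gene with a symbol that starts with snrp, sf3a, sf3b, srsf, prpf or u2af, or with lsm followed by a digit. The rule found 57 genes among the 8793 named on the array, and a gene with more than 1 probe set is represented by its brightest one, by the mean over all 18 arrays. The 57 genes were classed by their symbols. They comprised 8 of the Sm ring, 3 other proteins of the U1 and U2 particles and 9 of the SF3A and SF3B complexes. The rest were 2 of U2AF, 11 PRPF genes, 13 SR protein genes and 11 LSM genes.

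RNA of whole zebrafish embryos of wild-type genotype was measured in 6 groups of 3 arrays, which the labels call biological replicates. Embryos of the 1 to 2 cell stage were injected with anti-mir-34 LNA, a locked nucleic acid oligonucleotide that pairs with the microRNA mir-34, or with mock LNA, the control, and were collected at 1, 7 or 24 hours post fertilization (hpf). The 6 groups are therefore mock LNA at 1, 7 and 24 hpf and anti-mir-34 LNA at 1, 7 and 24 hpf, all injected and all aged at 30 degrees C. No group was left uninjected, no measure of mir-34 itself was used here, and the sources used here do not give the number of embryos in a sample. At 1 hpf, by the labels, embryos hold maternal transcripts.

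The spliceosome removes introns from messenger RNA precursors. Its small nuclear ribonucleoproteins (snRNPs) each hold a small RNA on a ring of proteins: the Sm ring for U1, U2, U4 and U5, and a ring of LSM proteins for U6. U1 marks the start of an intron, U2AF and then U2 with SF3A and SF3B mark its end and its branch point, and the joined U4, U6 and U5 particles, which hold several PRPF proteins, bring the catalytic core. SR proteins, with their stretches of arginine and serine, bind exons and recruit these parts. A fish embryo starts with messenger RNA laid down in the egg, clears much of it after its own genome becomes active, and is in gastrulation at 7 hpf.

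All levels below are log2 signals as deposited, and a difference of 1 between groups is a doubling. Differences are given with limma's standard error (±), and a gene is said to have risen or fallen where its adjusted p was under 0.05 over the 15502 probe sets tested. As the arrays are scaled to nearly equal distributions, a difference is relative to the other transcripts of the same embryos. In whole embryos, fewer cells of a type and less RNA per cell cannot be told apart. The median level of 8 maternal genes (such as zar1 and h1m) lay between 8.78 and 9.21 on the 1 hpf arrays, and that of 8 genes of differentiated tissue (such as the muscle genes myl1 and pvalb2) between 9.12 and 9.74 on those of 24 hpf. Some arrays stood apart. Mock replicate 2 of 7 hpf had a median of 5.99 over 7 gastrula genes against 6.92 and 7.54 on the other mock arrays of that age, and it was the lowest of the 3 for 34 of the 57 splicing genes. The anti-mir-34 arrays of 7 hpf had gastrula medians of 8.02, 7.12 and 7.65. Their maternal medians were 6.81, 7.47 and 6.49, beside 7.56, 7.83 and 6.79 on the mock arrays of that age. No gene of either list passed between the injections at 7 hpf. At 24 hpf, mock replicate 2 had a maternal median of 3.49 against 0.63 and 0.50. The 3′ minus 5′ difference of the gapdh control probe sets, a measure of RNA and labelling quality, averaged 1.30 ± 0.38 (SD, n = 3) in mock embryos of 24 hpf and 1.51 ± 0.28 with anti-mir-34 LNA, and single arrays of 24 hpf lay between 0.99 and 1.77. In the 4 younger groups the means lay between -0.17 and -0.03, but single arrays ranged from -1.40 to 0.78, with SDs of 0.75 (mock) and 1.19 (anti-mir-34) at 7 hpf. The same difference of the control probe sets of the actin gene acta1 lay between 3.84 and 4.43 on the arrays of 24 hpf. On the younger arrays it ranged from -1.77 to 5.30, the highest on mock replicate 2 of 1 hpf, where that of gapdh was -0.37. Signal levels of the acta1 probe sets were not examined, so their difference is not read as RNA quality on the younger arrays.

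Most splicing genes were well above the dim end of the arrays: 56 of the 57 had a mean of at least 5, where the median over all probe sets was 3.61. The exception was snrpd2, an Sm ring gene with a mean of 1.72. In mock embryos the genes as a set were higher at 7 than at 1 hpf and lower again at 24 hpf. From 1 to 7 hpf, 26 of 57 rose and 1 fell, while over all probe sets 13.6% rose and 10.4% fell. The median difference was 0.78 over the splicing genes and -0.19 over all probe sets, and 50 of the 57 differences were positive. From 7 to 24 hpf, 4 rose and 26 fell, against 19.5% and 23.5% of all probe sets, with a median of -0.66 beside -0.09. Over the whole interval from 1 to 24 hpf 22 rose and 16 fell, against 26.3% and 30% of all probe sets, with a median of 0.07 and differences from -6.04 to 3.62. Among the 4869 probe sets with a mean of at least 5, as bright as nearly all of these genes, 22.4% rose in the first step and 32.8% fell in the next, with 15.9% and 18.5% in the other direction. The splicing genes' share that rose in the first step (45.6%) and that fell in the next (45.6%) was above these. Counts of the single classes below cover few genes each and stand against the shares over all probe sets. With anti-mir-34 LNA 19.4% of all probe sets rose and 20% fell from 1 to 7 hpf, and 16.5% rose and 19.4% fell from 7 to 24 hpf.

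**Figure D1:**
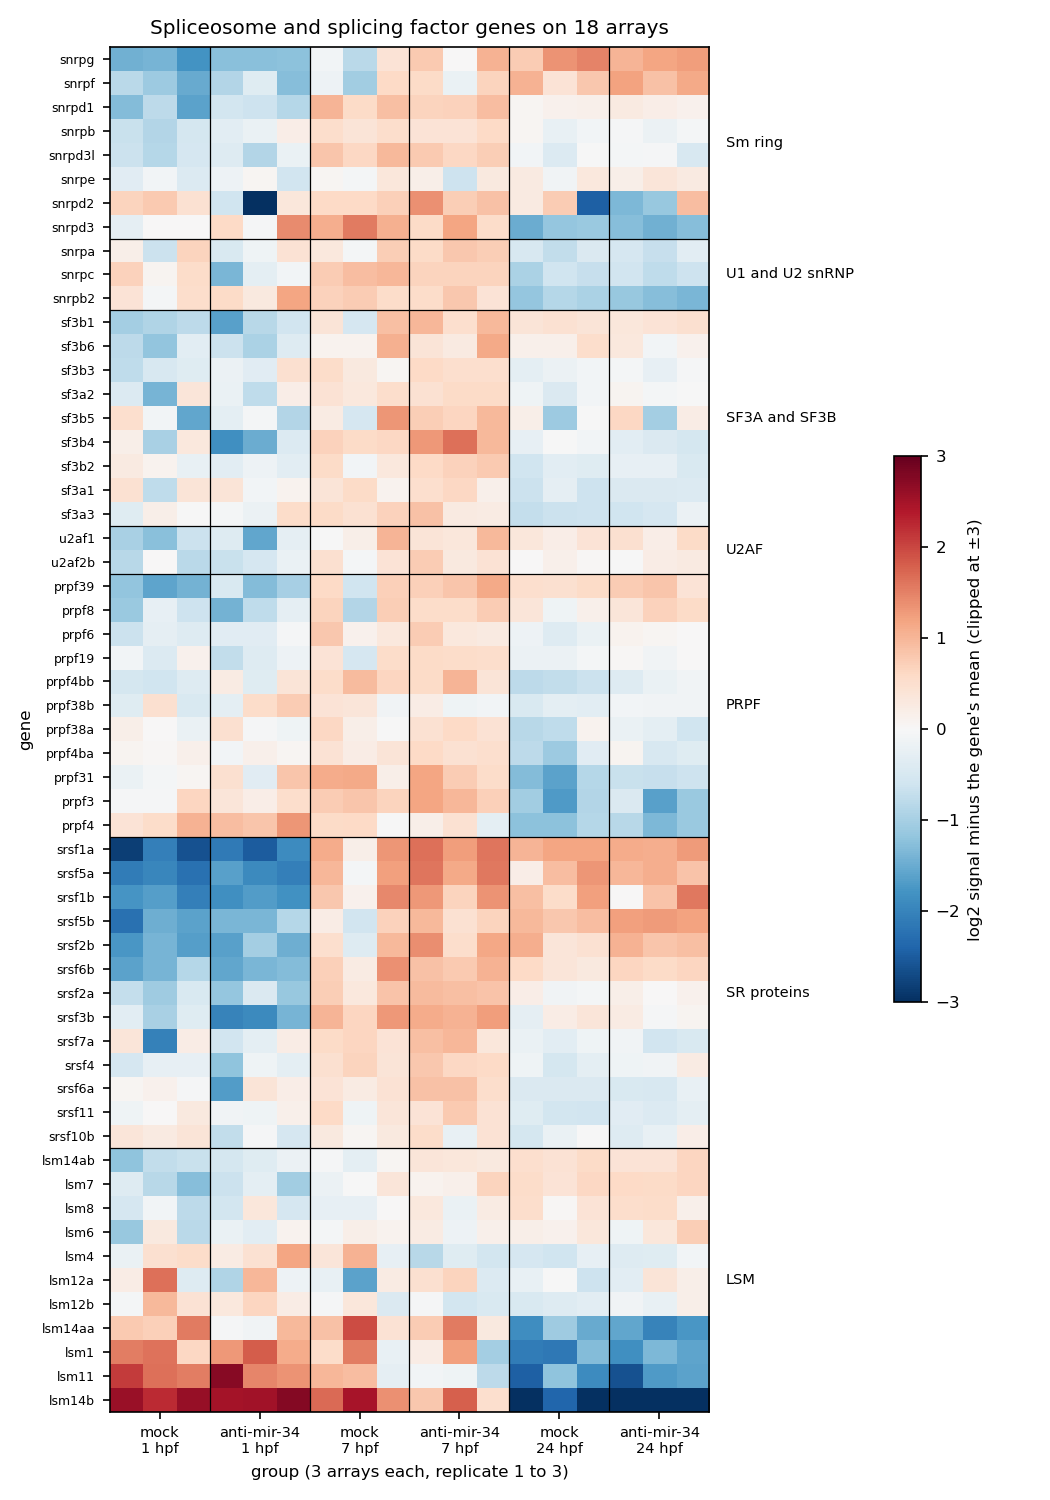
The log2 signal of each of the 57 genes on each of the 18 arrays, minus the gene's own mean over all arrays, clipped at 3 in either direction. Columns are arrays, 3 for each group, and rows are genes by class, in each class in order of the mock difference between 24 and 1 hpf; the SR protein genes at the top of their block are low on all 6 arrays of 1 hpf, and lsm14b at the foot is low on all 6 of 24 hpf.

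Leaving out the mock array of 7 hpf that stood apart gave 28 risers in the first step, and 1 riser and 24 fallers in the next. It was the lowest of the 3 arrays for 19 of the 26 genes that rose by 7 hpf, and for 34 of all 57. Without mock replicate 2 of 24 hpf, 20 genes fell from 7 to 24 hpf. The part of RNA quality in the lower levels of 24 hpf was not tested. The 2 steps share the arrays of 7 hpf, so the courses in mock embryos describe each gene rather than add support: 10 genes rose and then fell, 13 rose and then did not pass the test, 3 rose in both steps, 15 fell only in the later step, 1 fell in both, 1 rose only in the later step and 14 passed in neither. "Only" here refers to what passed the test. The same courses were not counted over all probe sets, so whether these counts are unusual was not tested.

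In mock embryos the Sm ring genes moved in both directions although their proteins share 1 complex. The ring is built of SNRPB, SNRPD1, SNRPD2, SNRPD3, SNRPE, SNRPF and SNRPG, and zebrafish has the further gene snrpd3l, a close relative of snrpd3. From 1 to 7 hpf 5 of the 8 genes rose in mock embryos and none fell, also at an unadjusted p under 0.05 (median 1.25), and from 7 to 24 hpf 2 rose and 4 fell. With anti-mir-34 LNA 5 rose and 0 fell, then 0 rose and 4 fell. For snrpd1, the mock arrays read 7.46, 7.97 and 7.16 at 1 hpf, 9.77, 9.33 and 9.67 at 7 hpf and 8.81, 8.88 and 8.92 at 24 hpf. Every array of 7 hpf lay above every array of the other ages, a rise of 2.06 ± 0.20 (4.17-fold, adjusted p = 1.89e-07) followed by a change of -0.72 ± 0.20 (adjusted p = 0.00574). With anti-mir-34 LNA snrpd1 read 8.21, 8.14 and 7.91 at 1 hpf, 9.43, 9.44 and 9.69 at 7 hpf and 9.03, 8.95 and 8.89 at 24 hpf.

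For snrpg, the signal climbed at both steps in mock embryos, from 5.11, 5.15 and 4.75 at 1 hpf to 6.46, 5.74 and 6.96 at 7 hpf and 7.31, 7.90 and 8.04 at 24 hpf. The groups did not overlap, and the differences were 1.38 ± 0.30 (adjusted p = 0.00179) and 1.36 ± 0.30 (adjusted p = 0.000975), together a 6.71-fold rise. Its anti-mir-34 arrays read 5.31, 5.30 and 5.32, then 7.33, 6.57 and 7.60, then 7.57, 7.73 and 7.80. There the step from 7 to 24 hpf was 0.53 ± 0.30 and did not pass (adjusted p = 0.181), but the difference between the steps of the injections did not pass either (-0.83 ± 0.42, adjusted p = 0.612). In mock embryos snrpf rose in the later step (0.96 ± 0.34, adjusted p = 0.0278) and was 0.53 without mock replicate 2 of 7 hpf, where it no longer passed, nor did it without replicate 1 of 7 hpf or 1 or 3 of 24 hpf (0.81 to 0.99).

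The relatives snrpd3 and snrpd3l both fell from 7 to 24 hpf. Mock snrpd3 read 7.63, 7.90 and 7.91 at 1 hpf, 8.98, 9.45 and 8.97 at 7 hpf and 6.42, 6.75 and 6.78 at 24 hpf, below its level of 1 hpf on every array. It fell by 2.49 ± 0.28 from 7 to 24 hpf (5.60-fold, adjusted p = 6.52e-07). The change of snrpd3l over the same step was -0.98 ± 0.21 (adjusted p = 0.000685), from 8.97, 8.77 and 9.12 to 8.06, 7.73 and 8.13, and it stayed above its 7.49, 7.29 and 7.63 of 1 hpf. From 1 to 24 hpf snrpd3 therefore fell (-1.17 ± 0.28, adjusted p = 0.00131) where snrpd3l rose (0.50 ± 0.21, adjusted p = 0.0456), and the difference between the genes was not tested. That rise of snrpd3l did not pass without mock replicate 1 or 2 of 1 hpf or 1 or 3 of 24 hpf (0.41 to 0.51, adjusted p from 0.0785 to 0.146), without the variance trend (adjusted p = 0.0977) or on the compared groups alone (adjusted p = 0.0506). The probe sets of such close relatives may cross-hybridize, which was not tested. Of the rest of the ring, snrpb rose by 1.17 and then fell by 0.56 (-0.49 and not passing without mock replicate 2 of 24 hpf), while snrpe (0.40 and 0.05) and the dim snrpd2 (0.01 and -1.12) passed in neither step.

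The 3 genes of proteins particular to the U1 and U2 particles fell in the later step under both injections. None of the 3 passed from 1 to 7 hpf in mock embryos, nor at an unadjusted p under 0.05 (0.26 to 0.45), and all 3 then fell from 7 to 24 hpf: snrpa and snrpc, which sit on U1, changed by -0.89 ± 0.29 and -1.63 ± 0.25 (adjusted p = 0.0168 and 2.97e-05), and snrpb2, which sits on U2, by -1.66 ± 0.22 (adjusted p = 5.87e-06). The change of snrpa did not pass without mock replicate 3 of 7 hpf or 2 of 24 hpf (-0.68 and -0.79). With anti-mir-34 LNA 2 of the 3 rose from 1 to 7 hpf, snrpc by 1.25 ± 0.25 (adjusted p = 0.000522) and snrpa by 0.76 ± 0.29 (adjusted p = 0.0403), the latter not passing without anti-mir-34 replicate 1 or 2 of 1 hpf or any 1 array of 7 hpf (0.56 to 0.83). For snrpb2 the mock arrays read 8.27, 7.80 and 8.37 at 1 hpf, 8.54, 8.62 and 8.40 at 7 hpf and 6.70, 6.99 and 6.90 at 24 hpf. With anti-mir-34 LNA they read 8.42, 8.15 and 9.04, then 8.41, 8.65 and 8.27, then 6.71, 6.57 and 6.49. At 24 hpf all 6 arrays lay below all 12 of the younger embryos. The U1 gene snrnp70, which lies outside the symbol rule, rose in the early step in mock embryos (1.61, adjusted p = 6.06e-05).

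SF3A and SF3B are the parts of U2 that hold the branch point, and U2AF binds just before the end of the intron. Of the 9 SF3 genes, 4 rose from 1 to 7 hpf in mock embryos (sf3a2, sf3b1, sf3b3 and sf3b6), 3 fell from 7 to 24 hpf (sf3a1, sf3a3 and sf3b2), and no gene passed in both on its chosen probe set. The rise of sf3a2 (0.91, adjusted p = 0.0364) was lost in 7 of 13 alternatives: it was 0.46 (adjusted p = 0.246) without mock replicate 2 of 1 hpf, 0.54 (adjusted p = 0.195) on the mean of its probe sets, and did not pass without replicate 1 of 1 hpf or 1 or 3 of 7 hpf. The dimmer probe set of sf3a2 did not pass in that step (0.16) but fell from 7 to 24 hpf (-1.56 ± 0.43, adjusted p = 0.00618). With anti-mir-34 LNA it fell there too (-1.76 ± 0.43, adjusted p = 0.00314). The later changes of sf3a1 and sf3b2 did not pass without mock replicate 2 and mock replicate 1 of 7 hpf, in that order (-0.75 and -0.55). With anti-mir-34 LNA 5 rose and then 5 fell, and sf3b2 (0.97 and -1.01), sf3b3 (0.54 and -0.65) and sf3b4 (2.55 and -1.73) passed in both steps, though neither step of sf3b3 passed without anti-mir-34 replicate 1 of 7 hpf. The other probe set of sf3b4, dim at a mean of 2.26, passed in neither step (-0.03 and -0.26). The scaffold subunit sf3b1 read 6.84, 6.95 and 7.07 at 1 hpf in mock embryos, 8.25, 7.36 and 8.77 at 7 hpf and 8.25, 8.33 and 8.25 at 24 hpf. Replicate 2 of 7 hpf was again the low array, and the rise of 1.17 ± 0.29 (adjusted p = 0.00513) was kept at 24 hpf, where the level was 2.51-fold that of 1 hpf. Its anti-mir-34 arrays read 6.24, 7.04 and 7.28, then 8.85, 8.37 and 8.84, then 8.20, 8.27 and 8.35. The sf3b1 gene has another probe set, which agreed in the early rise (1.25 ± 0.41, adjusted p = 0.0296) but rose again by 24 hpf (1.14 ± 0.41, adjusted p = 0.0286) where the brighter one did not (0.15 ± 0.29).

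For sf3b6, whose protein contacts the branch point, mock arrays read 6.04, 5.65 and 6.50 at 1 hpf, 6.92, 6.92 and 7.88 at 7 hpf and 6.98, 6.97 and 7.35 at 24 hpf. It rose by 1.18 ± 0.30 (adjusted p = 0.00601), and by 0.86 without mock replicate 3 of 7 hpf, where it no longer passed (adjusted p = 0.0532). In contrast sf3a3 read 6.61, 7.15 and 6.96, then 7.55, 7.43 and 7.65, then 6.26, 6.32 and 6.34, a change of -1.24 ± 0.24 from 7 to 24 hpf (adjusted p = 0.000278) that left every array of 24 hpf below every array of 1 hpf. Both U2AF genes rose early and did not pass in the later step (-0.22 to -0.07). The small subunit u2af1 read 5.45, 5.17 and 5.79 at 1 hpf, 6.42, 6.60 and 7.46 at 7 hpf and 6.77, 6.64 and 6.85 at 24 hpf (rise of 1.36 ± 0.32, adjusted p = 0.00394). The large subunit u2af2b rose by 0.83 ± 0.23 (adjusted p = 0.0115), and its other probe set by 1.06 ± 0.28 (adjusted p = 0.00804). Without mock replicate 1 or 3 of 1 hpf or 1 of 7 hpf the rise of the brighter one was 0.69 to 0.73 and did not pass. From 1 to 24 hpf the brighter one rose by 0.61 (adjusted p = 0.029), which was lost in 6 of 13 alternatives. The other one did not pass there (0.65, adjusted p = 0.0546).

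PRPF genes take their name from yeast mutants of messenger RNA processing and do not form 1 complex. Of the 11, 4 rose from 1 to 7 hpf in mock embryos (prpf4bb, prpf6, prpf31 and prpf39) and 7 fell from 7 to 24 hpf. The 3 largest falls were those of U4 and U6 proteins: prpf3 changed by -1.97 ± 0.31 (adjusted p = 3.09e-05), prpf4 by -1.49 ± 0.25 (adjusted p = 7.55e-05) and prpf31 by -2.06 ± 0.31 (adjusted p = 2.36e-05). Mock prpf31, which holds U4 and U6 to U5, read 5.85, 6.00 and 6.13 at 1 hpf, 7.18, 7.20 and 6.24 at 7 hpf and 4.77, 4.46 and 5.21 at 24 hpf. Its early rise of 0.88 ± 0.31 (adjusted p = 0.0454) did not pass when any 1 mock array of 1 hpf, or replicate 1 or 2 of 7 hpf, was left out (0.72 to 0.95). For prpf4 the mock arrays read 7.70, 7.84 and 8.33, then 7.86, 7.88 and 7.28, then 6.06, 6.05 and 6.43, and 24 hpf lay below both younger ages.

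Of the PRPF genes of U5, prpf6 passed in both steps and prpf8 in neither in mock embryos. Their calls were not the same with anti-mir-34 LNA, but no difference between the injections over age passed for either gene. In limma's F-test of injection by age the adjusted p was 0.898 for prpf6 and 0.79 for prpf8. A bridge between U5 and the other particles, prpf6, rose and fell by 0.86 and -0.66 (adjusted p = 0.00544 and 0.0165). The core protein next to the catalytic centre, prpf8, differed by 0.83 and -0.04, and mock replicate 2 of 7 hpf read 7.08 beside 8.64 and 8.71. Its dimmer probe sets, with means of 0.32 and 3.35, passed in neither step either. From 1 to 24 hpf, however, they rose by 3.50 ± 1.25 and 2.40 ± 0.92 in mock embryos (adjusted p = 0.0222 and 0.0313). The brightest one did not pass there, and the signal of the one with a mean of 0.32 is close to background. The later step of prpf6 did not pass without mock replicate 1 of 7 hpf or 2 of 24 hpf (-0.47 and -0.59). With anti-mir-34 LNA prpf8 rose from 1 to 7 hpf (1.43 ± 0.35, adjusted p = 0.00254), and prpf6 did so by 0.68 and then differed by -0.39 (adjusted p = 0.171). On the other hand prpf39, known as a U1 protein in yeast, rose and stayed up: mock arrays read 6.15, 5.75 and 5.93 at 1 hpf, 7.94, 6.75 and 8.05 at 7 hpf and 7.85, 7.81 and 7.90 at 24 hpf. The rise was 1.64 ± 0.29 (adjusted p = 0.000229), with replicate 2 of 7 hpf more than 1 below the other arrays of its group. Its anti-mir-34 arrays read 6.87, 6.04 and 6.35, then 8.05, 8.16 and 8.47, then 8.10, 8.16 and 7.74. The related kinases prpf4ba and prpf4bb both fell from 7 to 24 hpf (-1.10 ± 0.23 and -1.43 ± 0.24), and prpf4bb had first risen (1.22 ± 0.24).

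SR protein genes had the largest early rises. Of the 13, 9 rose from 1 to 7 hpf in mock embryos and none fell, also at an unadjusted p under 0.05, with a median of 1.55, the highest of the 7 classes. From 7 to 24 hpf 1 rose and 4 fell, and at 24 hpf 8 remained above their level of 1 hpf. For srsf1a, whose protein binds exonic enhancers and is the best studied of the family, mock arrays read 4.68, 5.46 and 4.89 at 1 hpf, 8.62, 7.69 and 8.84 at 7 hpf and 8.53, 8.68 and 8.68 at 24 hpf. It rose 10.4-fold (3.37 ± 0.27, adjusted p = 1.44e-08). With anti-mir-34 LNA srsf1a read 5.39, 5.0 and 5.61, then 9.16, 8.76 and 9.12, then 8.63, 8.60 and 8.78, so the arrays of 1 hpf stood apart from the rest under either injection. The paralogue srsf1b rose by 2.61 ± 0.37 (adjusted p = 2.35e-05), and by 1.21 ± 0.35 on its other probe set.

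Other rises of this class were 2.82 ± 0.30 for srsf5a (adjusted p = 7.74e-07), 2.07 ± 0.25 for srsf6b (adjusted p = 3.73e-06), 1.96 ± 0.33 for srsf2b and 1.39 ± 0.22 for srsf2a. The gene srsf5b was the SR gene that rose in both steps in mock embryos: its arrays read 4.25, 5.02 and 4.88 at 1 hpf, 6.71, 5.92 and 7.18 at 7 hpf and 7.45, 7.30 and 7.41 at 24 hpf. Its later step was 0.78 ± 0.29 (adjusted p = 0.0328), and 0.44 (adjusted p = 0.22) without mock replicate 2 of 7 hpf. It did not pass without replicate 1 of 7 hpf or any 1 array of 24 hpf either (0.75 to 0.84). Among the genes that passed in neither step, srsf7a read 8.81, 6.44 and 8.69 at 1 hpf, so that 1 array set its early difference of 1.02 ± 0.41. For srsf6a the chosen probe set moved by 0.32 ± 0.34, while a dimmer one rose by 1.29 ± 0.45 (adjusted p = 0.0403). The SR gene that fell from 1 to 24 hpf in mock embryos, srsf11, read 9.19, 9.32 and 9.60, then 9.92, 9.18 and 9.67, then 8.95, 8.75 and 8.73, a change of -0.78 ± 0.19 from 7 to 24 hpf (adjusted p = 0.00265). Its difference from 1 to 24 hpf, -0.56 ± 0.19, did not pass without mock replicate 3 of 1 hpf or 2 or 3 of 24 hpf (-0.53 to -0.44).

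**Figure D2:**
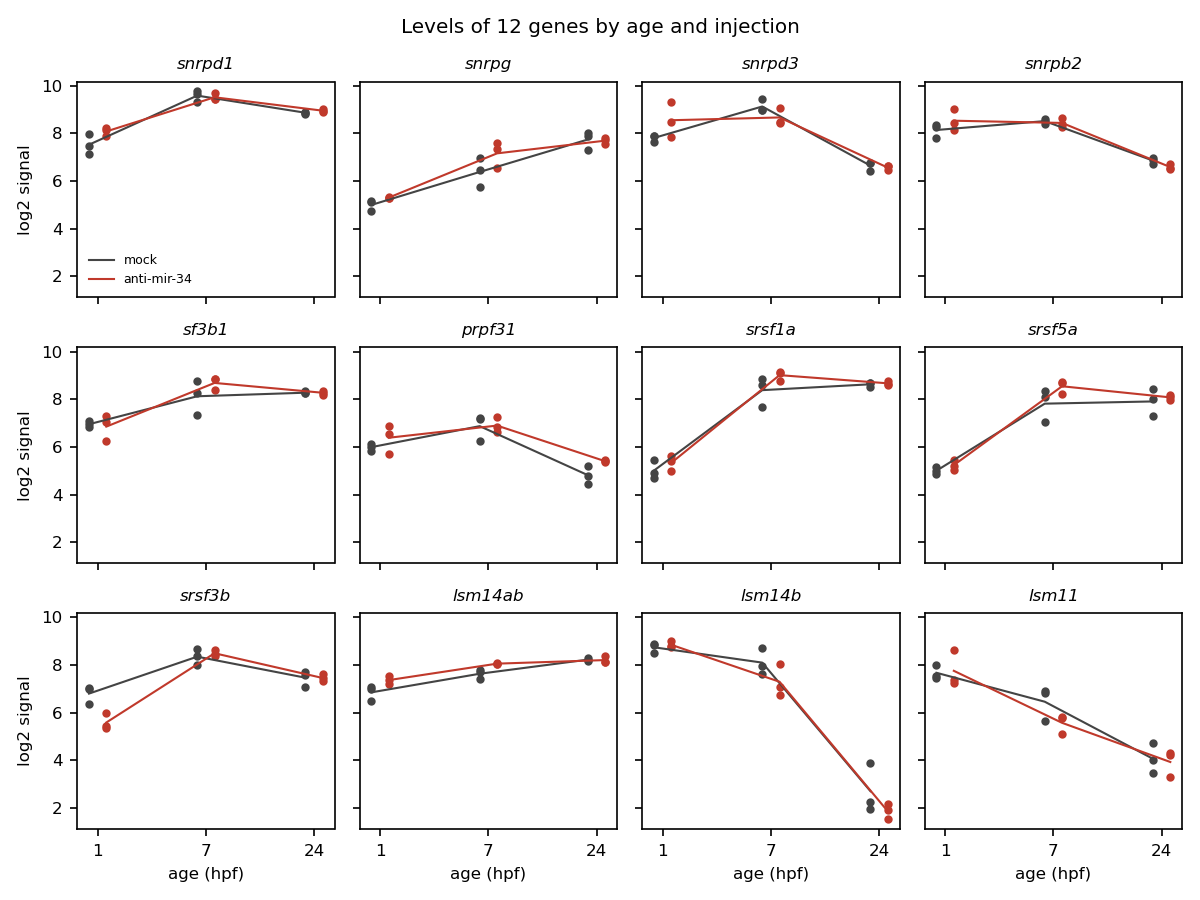
The log2 signal of 12 genes against age in hpf, with 1 point per array, lines through the group means, mock LNA in grey and anti-mir-34 LNA in red. The signals of snrpd1 peak at 7 hpf, and those of srsf1a and srsf5a rise and stay up. Those of snrpg rise at both steps in mock embryos, and those of lsm14b drop by 24 hpf. Of these genes srsf3b alone passed between the injections at 1 hpf, and the arrays of snrpg and lsm14ab did not overlap there either.

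The LSM genes included both splicing proteins and relatives that work elsewhere. LSM4, LSM6 and LSM7 belong to the ring on U6 and to a second ring in the cytoplasm that leads messenger RNA to decapping, LSM8 marks the U6 ring and LSM1 the cytoplasmic one. LSM11 belongs to the U7 particle, which processes histone messenger RNA, and LSM14 proteins bind messenger RNA in cytoplasmic granules. In mock embryos 2 of 11 rose and 1 fell from 1 to 7 hpf, against 13.6% and 10.4% of all probe sets. From 7 to 24 hpf 1 rose and 5 fell, against 19.5% and 23.5%. The steepest fall of all 57 genes was that of lsm14b. Its mock arrays read 8.86, 8.51 and 8.87 at 1 hpf, 7.95, 8.73 and 7.63 at 7 hpf and 1.97, 3.89 and 2.26 at 24 hpf. From 7 to 24 hpf it fell by 5.40 ± 0.41 (adjusted p = 3.89e-09), to levels at which the signal is close to background. When 16 was added to each signal before taking log2, the difference was -3.64. The high array of 24 hpf is mock replicate 2, which also had the highest maternal median of that age. A link between the 2 was not tested. With anti-mir-34 LNA lsm14b read 8.76, 8.78 and 9.01, then 7.08, 8.06 and 6.76, then 1.91, 1.53 and 2.15.

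Of the paralogues of lsm14b, 1 fell and 1 rose. The gene lsm14aa fell by 2.58 ± 0.40 from 7 to 24 hpf (adjusted p = 2.89e-05), though its other, dimmer probe sets did not pass. In contrast lsm14ab read 6.51, 6.99 and 7.07 at 1 hpf, 7.70, 7.43 and 7.78 at 7 hpf and 8.22, 8.16 and 8.31 at 24 hpf in mock embryos, a rise of 1.38 ± 0.19 over the whole interval (adjusted p = 4.46e-06). Its later step of 0.60 ± 0.19 (adjusted p = 0.0165) was 0.49 without mock replicate 2 of 7 hpf and did not pass (adjusted p = 0.0689), nor without replicate 3 of 24 hpf (0.56). The markers of the 2 LSM rings also went apart, though the difference between them was not tested. The cytoplasmic lsm1 fell by 2.46 ± 0.47 from 7 to 24 hpf (adjusted p = 0.000276) (-3.11 ± 0.47 from 1 to 24 hpf), while lsm8 of the U6 ring rose by 0.79 ± 0.26 from 1 to 24 hpf (adjusted p = 0.0151), which did not pass without mock replicate 3 of 1 hpf or 1 of 24 hpf (0.62 and 0.68).

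Of the subunits the rings share, lsm7 rose in mock embryos. The mock calls of lsm6 and lsm4 lay near the threshold. They were lost without the variance trend and when any 1 of several arrays was left out. The rise of lsm6 from 1 to 24 hpf (0.76, adjusted p = 0.0327) was 0.46 (adjusted p = 0.209) without mock replicate 1 of 1 hpf and did not pass without replicate 3 of 1 hpf or any 1 array of 24 hpf. For lsm7 the mock arrays read 6.97, 6.53 and 6.09 at 1 hpf, 7.18, 7.35 and 7.72 at 7 hpf and 7.92, 7.78 and 7.99 at 24 hpf (1.36 ± 0.25 from 1 to 24 hpf, adjusted p = 8.57e-05). Its early step of 0.89 ± 0.25 did not pass without replicate 3 of 1 hpf or of 7 hpf (0.67 and 0.73). In the same embryos lsm4 fell by 0.83 ± 0.29 from 7 to 24 hpf (adjusted p = 0.0274), but the change was -0.50 (adjusted p = 0.19) without mock replicate 2 of 7 hpf and did not pass without replicate 1 of 7 hpf or 1 or 2 of 24 hpf. The U7 gene lsm11 was the gene that fell in both steps in mock embryos, from 8.02, 7.56 and 7.45 at 1 hpf to 6.91, 6.83 and 5.65 at 7 hpf and 3.46, 4.71 and 4.03 at 24 hpf. Its first step of -1.21 ± 0.42 (adjusted p = 0.0391) did not pass without any 1 of the mock arrays of 1 hpf or without replicate 3 of 7 hpf (-1.33 to -0.81). Set aside by role, after the values had been seen, lsm1, lsm11, lsm12a, lsm12b and the 3 LSM14 genes left 50 genes. The SR protein genes, and lsm4, lsm6 and lsm7 of both rings, are among those 50. Of these 25 rose from 1 to 7 hpf in mock embryos (13.6% of all probe sets), and 3 rose and 22 fell from 7 to 24 hpf (19.5% and 23.5%). That 0 of them fell in the first step followed from the split. The 1 gene of the 57 that fell there, also at an unadjusted p under 0.05, was lsm11, which was set aside. The 7 genes set aside had medians of -0.64 and -2.40 in the same steps.

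**Figure D3:**
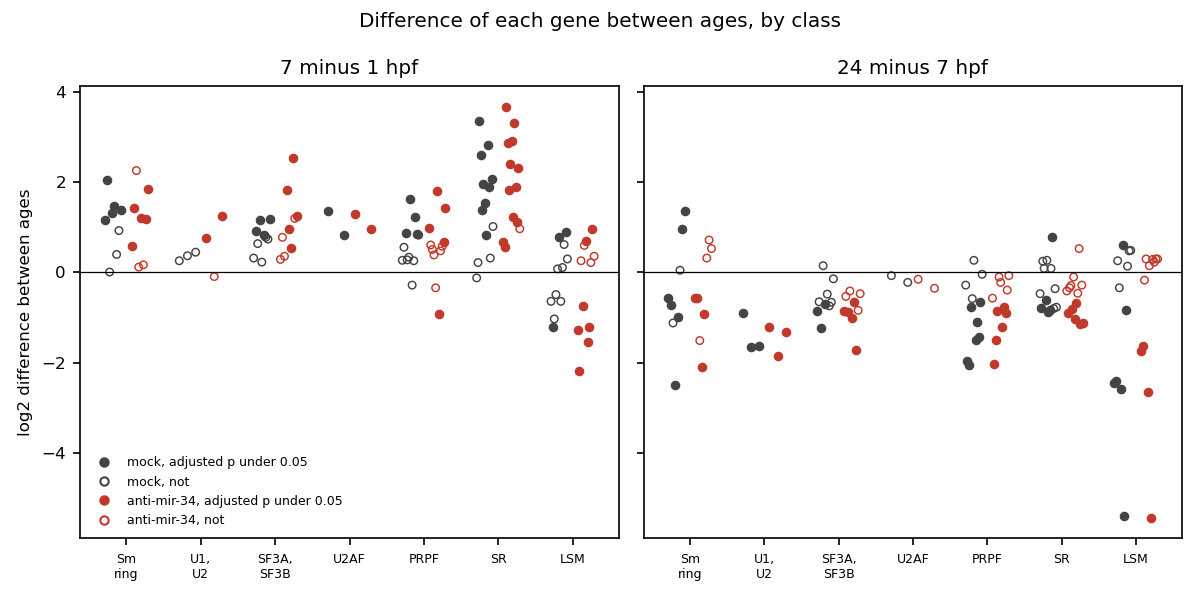
The log2 difference of each of the 57 genes from 1 to 7 hpf (left) and from 7 to 24 hpf (right) by class, with mock LNA in grey, anti-mir-34 LNA in red and filled points for an adjusted p under 0.05. SR protein genes reach 3.37 in mock embryos on the left, and lsm14b lies at -5.40 on the right.

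Embryos injected with anti-mir-34 LNA showed rises and falls in the same steps. From 1 to 7 hpf 32 of the 57 genes rose and 6 fell (19.4% and 20% of all probe sets), and from 7 to 24 hpf 0 rose and 28 fell (16.5% and 19.4%). At an unadjusted p under 0.05, 1 rose in that later step. Median differences were 0.78 and -0.57. Of the genes that rose by 7 hpf, 22 did so under both injections, 84.6% of the mock list and 68.8% of the anti-mir-34 list. Of those that fell by 24 hpf 24 were shared, 92.3% and 85.7% of the lists, and no gene passed in opposite directions. The same overlaps were not counted over all probe sets, so they are not read as particular to the splicing genes. All but 1 of the 13 SR genes rose by 7 hpf with anti-mir-34 LNA. The 6 genes that fell by 7 hpf were lsm1, lsm4, lsm11, lsm12b, lsm14b and prpf4, and without anti-mir-34 replicate 3 of 7 hpf 3 fell. The calls of lsm1 and lsm12b were lost in 6 and 5 of 13 alternatives. For lsm12b the chosen probe set changed by -0.74 (adjusted p = 0.0261), and its other one, nearly as bright, by 0.02 (adjusted p = 0.972).

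Whether the steps differed between the injections was tested as such. None of the 57 genes passed for the step from 1 to 7 hpf, where 0.271% of all probe sets did, and none passed for the step from 7 to 24 hpf or in the F-test of injection by age (0% and 0.0968% of all probe sets). At an unadjusted p under 0.05, 10, 2 and 8 genes passed in these limma tests, against 11.8%, 8.6% and 10.8% of all probe sets. The difference nearest to the threshold was that of srsf3b from 1 to 7 hpf, which rose by 2.91 ± 0.25 with anti-mir-34 LNA and by 1.55 ± 0.25 with mock LNA (1.36 ± 0.35, adjusted p = 0.113). For sf3b4, an RNA-binding subunit of SF3B, the values were 2.55 ± 0.33 and 0.78 ± 0.33 (difference of 1.78 ± 0.46, adjusted p = 0.121). For snrpd3 they were 0.12 ± 0.28 and 1.32 ± 0.28 (-1.20 ± 0.39, adjusted p = 0.217), and for lsm4 -1.21 ± 0.29 and 0.11 ± 0.29 (-1.31 ± 0.42, adjusted p = 0.211).

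Differences between the injections at 1 age were small beside those between ages. At 1 hpf 1 gene was lower with anti-mir-34 LNA and none was higher (0.806% and 0.426% of all probe sets), with 6 higher and 5 lower at an unadjusted p under 0.05, which 9.83% of all probe sets passed in either direction. The gene was srsf3b, an SR protein that also shuttles messenger RNA out of the nucleus. Its arrays read 5.36, 5.44 and 5.97 with anti-mir-34 LNA and 7.04, 6.38 and 6.99 with mock LNA. The groups did not overlap, as was the case for 10 of the 57 genes (17.5%) and 12.7% of all probe sets at 1 hpf. The level was 2.32-fold lower (-1.21 ± 0.25, adjusted p = 0.0151). Without mock replicate 1, mock replicate 3 or anti-mir-34 replicate 1 the difference was -1.10, -1.12 and -1.10 and did not pass (adjusted p = 0.0779, 0.0611 and 0.0631). At 7 hpf srsf3b read 8.47, 8.40 and 8.62 with anti-mir-34 LNA and 8.38, 8.01 and 8.67 with mock LNA, and at 24 hpf 7.61, 7.32 and 7.44 against 7.09, 7.59 and 7.73, so the groups overlapped at both later ages.

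The U1 gene snrpc fell just short at 1 hpf, at 7.24, 8.33 and 8.53 with anti-mir-34 LNA against 9.31, 8.70 and 9.17 with mock LNA (-1.02 ± 0.25, adjusted p = 0.0508), and 1 array at 7.24 lay below the rest. For sf3b4 the arrays read 5.58, 5.92 and 7.01 against 7.60, 6.44 and 7.74 and overlapped (-1.09 ± 0.33, adjusted p = 0.125). At 7 hpf no gene passed, where 0% of all probe sets were higher and 0.0129% lower with anti-mir-34 LNA. An unadjusted p under 0.05 gave 7 higher and 2 lower, and was passed by 12.4% of all probe sets. The smallest p there was that of lsm4, at 7.34, 7.81 and 7.62 with anti-mir-34 LNA against 8.52, 9.21 and 7.91 with mock LNA (-0.96 ± 0.29, adjusted p = 0.199). The next was that of snrpg (0.78 ± 0.30, adjusted p = 0.312), with mock replicate 2 the lowest of the 6 arrays.

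At 24 hpf no gene passed either, where 0.0129% of all probe sets were higher and 0% lower, and 1 gene was higher at an unadjusted p under 0.05, which 4.43% of all probe sets passed. The smallest p values were those of prpf4ba, at 6.12, 5.57 and 5.69 with anti-mir-34 LNA against 5.25, 4.95 and 5.70 with mock LNA (0.49 ± 0.23), and of lsm14b (-0.84 ± 0.41), both at an adjusted p of 0.999. The median difference between the injections was 0.16, 0.18 and 0.09 at 1, 7 and 24 hpf, beside 0.04, 0.03 and 0.01 over all probe sets. The positive differences numbered 37, 40 and 41 of the 57. Their share was not counted over all probe sets, and the 57 genes were read on the same arrays. For 1 gene alone, 3 arrays against 3 cannot reach an exact permutation p below 0.1.

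**Figure D4:**
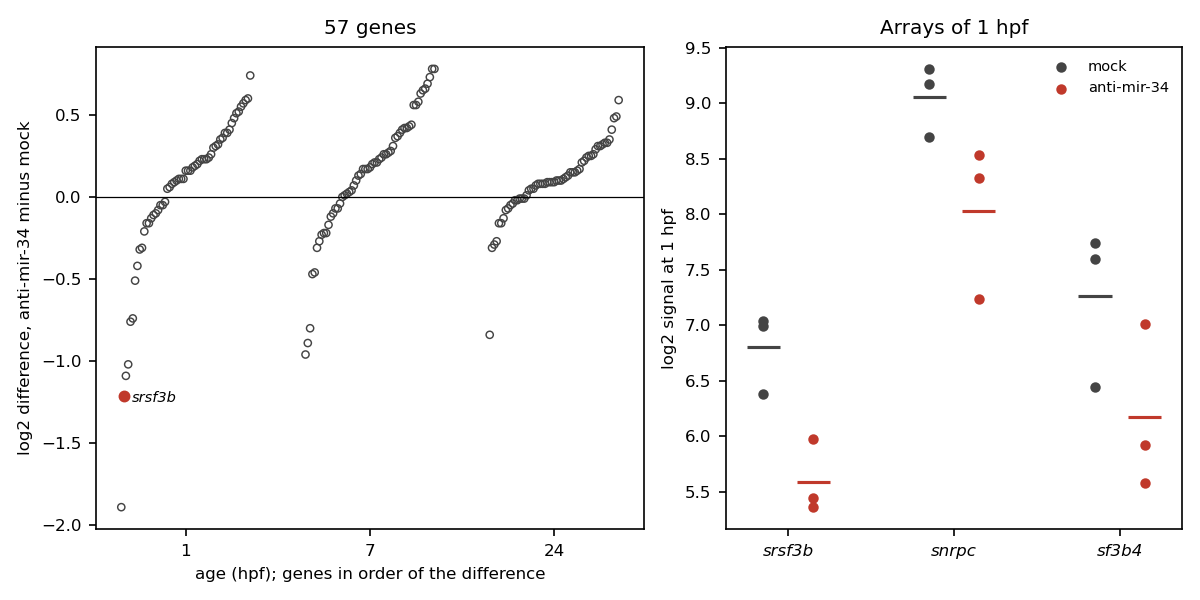
Left, the log2 difference between anti-mir-34 LNA and mock LNA for each of the 57 genes at 1, 7 and 24 hpf, in order of size at each age, with the filled point for an adjusted p under 0.05. Right, the log2 signals of srsf3b, snrpc and sf3b4 on the 6 arrays of 1 hpf with group means as bars. The injections do not overlap for srsf3b and snrpc, as for 12.7% of all probe sets, and overlap for sf3b4.

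Beyond the symbol rule, 7 lists of other splicing genes held 129 genes on the array, chosen by role. In mock embryos 41 rose and 8 fell from 1 to 7 hpf (13.6% and 10.4% of all probe sets), and 16 rose and 49 fell from 7 to 24 hpf (19.5% and 23.5%). Counts of the single lists are of mock embryos unless said otherwise, stand against the same shares, and cover few genes each. Of the exon junction complex, which marks joined exons, 7 of 12 genes rose by 7 hpf and 10 fell by 24 hpf, with 0 in the other direction, also at an unadjusted p under 0.05. Its core helicase eif4a3 rose by 2.02 ± 0.20 (adjusted p = 2.69e-07) and rbm8a by 1.42, and alyref, which links splicing to export, fell by 1.44 in the later step. Of 17 further snRNP proteins 4 rose and 1 fell in the first step and 1 rose and 9 fell in the next, among them txnl4a of U5 (-1.49, adjusted p = 1.36e-05) and snrnp27 (-1.34).

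Of 30 assembly and catalysis factors, 5 rose by 7 hpf and 12 fell by 24 hpf, with 0 in the other direction (unadjusted, 14 and 17, and again 0). The second-step factor slu7 fell by 3.05 (adjusted p = 4.02e-05) and plrg1 of the complex around PRPF19 changed by -1.84, while prpf19 itself differed by -0.28 ± 0.23. The hnRNP genes, whose proteins bind introns and often oppose SR proteins, rose early: 17 of 26 rose and 2 fell by 7 hpf, with hnrnpa0a up by 4.60 (adjusted p = 3.91e-10) and hnrnpa1b by 2.87 ± 0.24. At 24 hpf 16 stood above and 4 below their level of 1 hpf. Of 14 SR-like proteins and kinases of SR proteins 3 rose and 2 fell from 1 to 7 hpf, near the shares of all probe sets. The 2 were the kinases clk2b (-2.42, adjusted p = 1.38e-06) and clk4a (-1.91, adjusted p = 1.03e-05).

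Regulators of tissue-specific splicing were the list with most rises after 7 hpf in mock embryos: 8 of 18 rose and 3 fell. With anti-mir-34 LNA 7 rose and 7 fell in that step, against 16.5% and 19.4% of all probe sets. The mock risers known from neurons were elavl4 (5.79, adjusted p = 2.06e-07), elavl3, celf2, celf3a, celf4 and nova2. The others were rbfox1l (5.14, adjusted p = 7e-10) and rbfox1, known from muscle and neurons. In these lists elavl3 is also 1 of the 8 genes of differentiated tissue. The SMN complex and its partners, which load Sm rings onto the small RNAs, had 0 of 12 genes that rose and 3 that fell by 7 hpf in mock embryos, and 0 and 4 by 24 hpf. At an unadjusted p under 0.05, 0 and 1 rose. With anti-mir-34 LNA 3 rose (strap by 1.56, prmt5 by 1.60 and wdr77 by 0.91) and 6 fell by 7 hpf, where 19.4% of all probe sets rose and 20% fell. The Cajal body gene coil fell in both steps (-1.68 and -2.08), gemin5 in the later one (-2.83, adjusted p = 3.55e-07) and smn1 in the first (-0.98, adjusted p = 0.00838).

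Between the injections, 3 of the 129 genes were higher and 1 lower at 1 hpf (0.426% and 0.806% of all probe sets), and 0 passed at 7 and 24 hpf. At an unadjusted p under 0.05, 9 were higher and 16 lower at 1 hpf, 10 and 4 at 7 hpf, and 5 and 0 at 24 hpf. With anti-mir-34 LNA eif4a3 was higher by 1.51 ± 0.20 (adjusted p = 0.000914), hnrnpa1b by 1.34 ± 0.24 (adjusted p = 0.00633) and khdrbs1b by 1.05, and strap of the SMN complex was lower (-1.26 ± 0.31, adjusted p = 0.0486). At 7 hpf the differences were 0.17 for eif4a3, -0.03 for hnrnpa1b and 0.02 for strap. When the 6 arrays of 1 hpf were fitted on their own, 0 of all 15502 probe sets passed between the injections, where the fit over 18 arrays gave 191.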

How the data were processed

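RNA of 18 samples was measured on Affymetrix arrays, 3 in each of 6 groups. The authors deposited log2 values of 15617 probe sets; the submitters' processing notes name GCOS without a version, and their normalization is not given there. All 8 pairs of arrays with equal numbers of values held the same sorted values (tolerance 1e-04), so distributions had been equalized. In all 131 values were missing, 1 of them in these genes' 73 probe sets, and stayed missing. Of 15502 probe sets that are not controls, 10795 had 1 symbol, 135 several and 4572 none; all 57 genes matched NCBI RefSeq by Entrez number. Having 3 arrays per group limits the precision.

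A mean per group was fitted with limma 3.58.1 in R 4.3.3 to all 18 arrays, with eBayes (intensity trend), two-sided tests and Benjamini-Hochberg adjustment over 15502 probe sets at 0.05; all adjusted p-values are limma's. The fit was tested on simulated data. Whether replicates came from separate clutches is not given, so p-values measure only the spread between these samples. The genes and lists were chosen with earlier results of these data known. The gene snrpd3l was placed with the Sm ring. Values on every array are given for the largest riser and faller of each class in each mock age comparison, and for each gene that passed between injections, or else the 2 with the smallest p; a few others were named after their values were seen. Same-numbered samples correlated between -0.041 and 0.277 in their deviations from group means. Between ages no value was above 0.08, but between the injections at 7 hpf replicates 1 to 3 gave 0.062, 0.277 and 0.248. Whether the numbers pair samples is not given, and the main fit did not pair them. Alternatives were 16 added to the signals, a filter on dim probe sets, quantile normalization, no trend, the mean of a gene's probe sets, a fit on the compared groups alone, replicate blocks and leaving out each array.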

Additional observations from a re-analysis of the deposited data

Results flagged for a closer look

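The step of eif4a3, the helicase of the exon junction complex, from 1 to 7 hpf differed between the injections: it was 0.68 ± 0.20 with anti-mir-34 LNA and 2.02 ± 0.20 with mock LNA, a difference of -1.34 ± 0.28 (limma, adjusted p = 0.0461). Its mean levels were 8.69 and 7.18 at 1 hpf and 9.37 and 9.20 at 7 hpf. It is 1 of 129 genes of the wider splicing lists, and none of the 57 genes of the symbol rule passed this test, which 0.271% of all probe sets did. For eif4a3 the test was not repeated under the alternatives or with arrays left out.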

How the results depend on the processing

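Of the calls between ages in mock embryos, 19 of 27 from 1 to 7 hpf, 19 of 30 from 7 to 24 hpf and 28 of 38 from 1 to 24 hpf passed under every alternative; with anti-mir-34 LNA they were 28 of 38 and 17 of 28, and no call reversed. The call between the injections at 1 hpf held in 0 of 1 cases. There the number of genes lower with anti-mir-34 LNA, 1, was 2 with 16 added, with probe sets under a mean of 4 left out and with quantile normalization (snrpc joining srsf3b), and 0 without the variance trend and on the compared groups alone. The mock risers from 7 to 24 hpf, 4, were 2 without the trend and on the compared groups alone, the anti-mir-34 risers, 0, were 2 on the compared groups alone, and the mock faller from 1 to 7 hpf, 1, was 0 without the trend and with the mean of all probe sets.

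Leaving out 1 array gave these ranges. In mock embryos risers numbered 23 to 28 (1 to 7 hpf), 1 to 4 (7 to 24 hpf) and 18 to 21 (1 to 24 hpf), and fallers 0 to 1, 20 to 25 and 12 to 15. With anti-mir-34 LNA risers numbered 28 to 35 and 0 to 0, and fallers 3 to 6 and 21 to 26. Between injections 0 to 1, 0 to 0 and 0 to 0 genes were higher at 1, 7 and 24 hpf, and 0 to 3, 0 to 1 and 0 to 0 lower. For the difference between injections in the step from 1 to 7 hpf the range was 0 to 2, for that from 7 to 24 hpf 0 to 0 and for the F-test 0 to 0. Single arrays decided the small counts. The mock risers from 7 to 24 hpf were 2 without mock replicate 1 of either age and 1 without mock replicate 2 of 7 hpf or 3 of 24 hpf. The genes lower at 1 hpf were 3 without mock replicate 2 or anti-mir-34 replicate 3 and 2 without anti-mir-34 replicate 2. The step difference from 1 to 7 hpf was passed by 1 gene without mock replicate 2, anti-mir-34 replicate 2 or 3 of 1 hpf, and by 2 without mock replicate 3 of 7 hpf. That last array left out also gave 1 gene lower at 7 hpf, and 1 was higher at 1 hpf without anti-mir-34 replicate 2.

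With the replicate number as a block, 27 genes rose and 1 fell from 1 to 7 hpf in mock embryos, 4 and 26 from 7 to 24 hpf, and 22 and 16 from 1 to 24 hpf; with anti-mir-34 LNA 33 and 6, then 0 and 29. At 1 hpf 2 genes were lower, snrpc among them (adjusted p = 0.0496); no gene passed between injections at 7 or 24 hpf or in the step tests. The 16 added moved the median of all probe sets from -0.19 to -0.05 for the mock step from 1 to 7 hpf, from -0.21 to -0.04 for 24 against 1 hpf and from -0.23 to -0.05 for the anti-mir-34 step from 1 to 7 hpf. It turned the split of all calls in that mock step from 2103 higher and 1619 lower to 1968 and 2309, and gave 44 risers in place of 41 in the wider lists. Leaving out dim probe sets moved those medians to 0 and -0.06 for the steps from 1 to 7 hpf and to -0.25 and -0.26 for those from 7 to 24 hpf, where the splicing genes' medians were 0.80, 0.77, -0.66 and -0.57. The causes were not tested. Dim signals limit snrpd2, dimmer probe sets such as those of prpf8, and lsm14b at 24 hpf.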
